A study of Homo sapiens with 15 samples.

Results

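The fibrinolytic proteases urokinase (PLAU) and tissue plasminogen activator (PLAT), the urokinase receptor PLAUR, the serpins SERPINE2, SERPINB2, SERPINH1 and SERPINF1, and the elastase inhibitor PI3 were followed through RAS-driven senescence of human fibroblasts and through knockdown of METTL14 with or without add-back. They were chosen by symbol, as the rows whose Ensembl identifier maps to these 8 names: 8 of the 57736 genes in the count table. All 8 were among the 13516 genes tested. The cells were IMR90, a diploid fibroblast line from the lung of 1 fetus, and 3′ end counts were available for 15 libraries in 5 groups of 3. METTL14, together with METTL3, forms the enzyme complex that writes N6-methyladenosine on RNA.

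Plasminogen activators cut the zymogen plasminogen into plasmin, a serine protease that dissolves fibrin and degrades other matrix proteins. PLAUR holds urokinase at the cell surface, and serpins of this system stop the activators by forming a covalent complex with them. Both the activators and several of these inhibitors are known parts of the senescence-associated secretory phenotype, the set of proteases, cytokines and growth factors that senescent fibroblasts release. Some proteins of the serpin fold inhibit no protease, among them SERPINH1 (HSP47), a collagen chaperone, and SERPINF1 (PEDF), an antiangiogenic factor. PI3 (elafin) is not a serpin: it belongs to the WAP family of small elastase inhibitors.

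Control cells carried a retrovirus without insert and were given a control siRNA with no target. siControl RAS cells received that siRNA after a RAS retrovirus, whose isoform the labels do not name. The other 3 groups also carried RAS and were given siRNA against METTL14 together with a lentivirus. That lentivirus was the empty vector (knockdown), wild-type METTL14 (wild-type add-back) or METTL14 carrying the R298P substitution (R298P add-back). The first siRNA was given on day 4 in every group. RNA was taken 48 hours after the last of these treatments. Whether control and siControl RAS cells received a lentivirus is not stated, and a genotype label calls the cells knockout or knock-in although the protocols describe siRNA and lentivirus. The labels do not say whether the replicates are separate cultures, so p-values measure the spread between libraries, which may be technical.

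METTL14 followed the labels. It measured 19.1 to 23.3 CPM (counts scaled to library size and composition) in control, 19.3 to 26.2 with siControl RAS and 3.94 to 9.35 after knockdown. Knockdown differed from siControl RAS by -1.91 on the log2 scale (SE 0.213, edgeR adjusted p = 5.49e-06). The wild-type add-back held 508 to 564 CPM and the R298P add-back 892 to 1038, so both stood far above the level that siControl RAS cells had. These tags do not separate the endogenous from the lentiviral transcript.

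Total counts per library ran from 4917661 to 7763084, so 1 count is worth 0.129 to 0.203 CPM. All 11 fibroblast markers listed were tested, and their summed level was 11648 to 11779 CPM in control and 23560 to 24670 in siControl RAS. Of 12 leukocyte markers with an identifier 7 were at 0 in all libraries, among them AIF1, CD163, LYZ and TYROBP, and the list summed to 2.96 to 8.28 CPM in control and 14.2 to 23.7 in siControl RAS, mostly CD68. The endothelial markers CDH5, ERG and EMCN were also at 0 in every library. That list summed to 14.4 to 24.3 CPM in control, 31.7 to 36.7 in siControl RAS and 39.7 to 43.5 after knockdown, and its 2 tested genes, TEK (0.66) and ROBO4 (1.93), were both called higher with RAS. In RNA from whole cultures, a smaller number of cells of 1 kind and less RNA per cell cannot be told apart.

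Promoter windows of PLAU, PLAUR, SERPINE2, SERPINB2 and SERPINH1 were searched, and those of PLAT, PI3 and SERPINF1 were not. Shown are windows in which AP-1, TATA box or heat shock element letters were found, since these motifs are widely known from stress-induced genes. Each window holds the 250 bases before the RefSeq start (GRCh38.p14), printed 5′ to 3′ on the gene's strand with the matching letters in capitals. SERPINB2 (chr18:63887455-63887704, plus strand) has an AP-1 match that begins 102 bases and a TATA box 30 bases before the start. PLAUR (chr19:43670170-43670419, minus strand) has an AP-1 match at 186 and a C/EBP match, read on the opposite strand, at 62 bases before the start. SERPINH1 (first window, chr11:75562003-75562252, plus strand) has a heat shock element match at 71 bases before the start.
SERPINB2: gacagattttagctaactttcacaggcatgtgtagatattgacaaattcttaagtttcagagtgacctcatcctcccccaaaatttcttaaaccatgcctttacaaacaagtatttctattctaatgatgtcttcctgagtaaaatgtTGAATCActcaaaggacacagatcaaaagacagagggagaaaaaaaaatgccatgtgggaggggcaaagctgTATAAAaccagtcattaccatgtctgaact
PLAUR: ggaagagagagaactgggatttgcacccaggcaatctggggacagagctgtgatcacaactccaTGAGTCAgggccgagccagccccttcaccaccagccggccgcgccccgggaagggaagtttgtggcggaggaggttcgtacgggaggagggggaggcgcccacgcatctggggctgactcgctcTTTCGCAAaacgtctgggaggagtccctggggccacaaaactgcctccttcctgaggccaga
SERPINH1: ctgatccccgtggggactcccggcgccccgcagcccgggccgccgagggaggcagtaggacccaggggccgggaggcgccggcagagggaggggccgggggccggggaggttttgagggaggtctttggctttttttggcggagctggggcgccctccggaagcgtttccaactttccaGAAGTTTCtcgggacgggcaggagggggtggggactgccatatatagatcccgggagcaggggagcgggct
Letters were searched on both strands: TGANTCA for AP-1, TTGCNNAA for C/EBP, TATAAA for the TATA box and GAANNTTC for the heat shock element, beside the NF-kB motif, and no matches shown overlap. Among 35116 windows of this length 6.57% hold the AP-1 letters, 5.67% NF-kB, 9.05% C/EBP, 10.7% TATA and 5.78% the heat shock element. The second PLAU window has a C/EBP match 122 bases before its start, and in both SERPINE2 windows none of the 5 sets of letters was found. A match is a description of the sequence and no evidence of binding.

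Both activators rose when RAS was expressed. Of the 8 members, 6 were called higher and 1 lower in siControl RAS than in control at an adjusted p under 0.05, where 24% of all genes tested were called higher and 21.9% lower. The members' median log2 fold change was 1.29, and that of all genes tested was -0.0037. PI3 passed the filter on low counts through the RAS groups where it was high, so it had to differ from control, and its call is not counted as support. Of the other 7 members, 5 were called higher and 1 lower (median 0.89). The libraries of the groups did not overlap for 7 of 8 members and, without PI3, for 6 of 7, against 54.2% of all genes tested.

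After METTL14 knockdown, 5 of the 8 members fell: SERPINE2, SERPINB2, PI3, PLAT and PLAUR. For comparison, 8.06% of all genes tested were called lower and 7.47% higher. The same 5 members had no overlap between the libraries of the groups, against 30% of all genes tested. The members' median was -0.51 on the log2 scale and that of all genes -0.0028. PI3 was at or near 0 after knockdown and passed the low-count filter only through the groups where it was high, so it had to differ here too. Of the other 7 members 4 fell, the same 4 had no overlap, and the median was -0.44. PLAU, SERPINH1 and SERPINF1 did not pass the test. This comparison shares its 3 siControl RAS libraries with the one before, so a high siControl RAS library would raise one fold change and lower the other. The knockdown cells also received a lentivirus, and whether siControl RAS cells did is not stated. From these libraries the siRNA and the lentivirus cannot be told apart. The fibroblast markers moved with the members: their summed level was 19438 to 20426 CPM after knockdown, below every siControl RAS library. Of the 11 markers 9 were called higher and 2 lower with RAS (median 1.38), and 6 lower and 2 higher with knockdown (median -0.28). Their part in the members' changes was not tested.

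**Figure D1:**
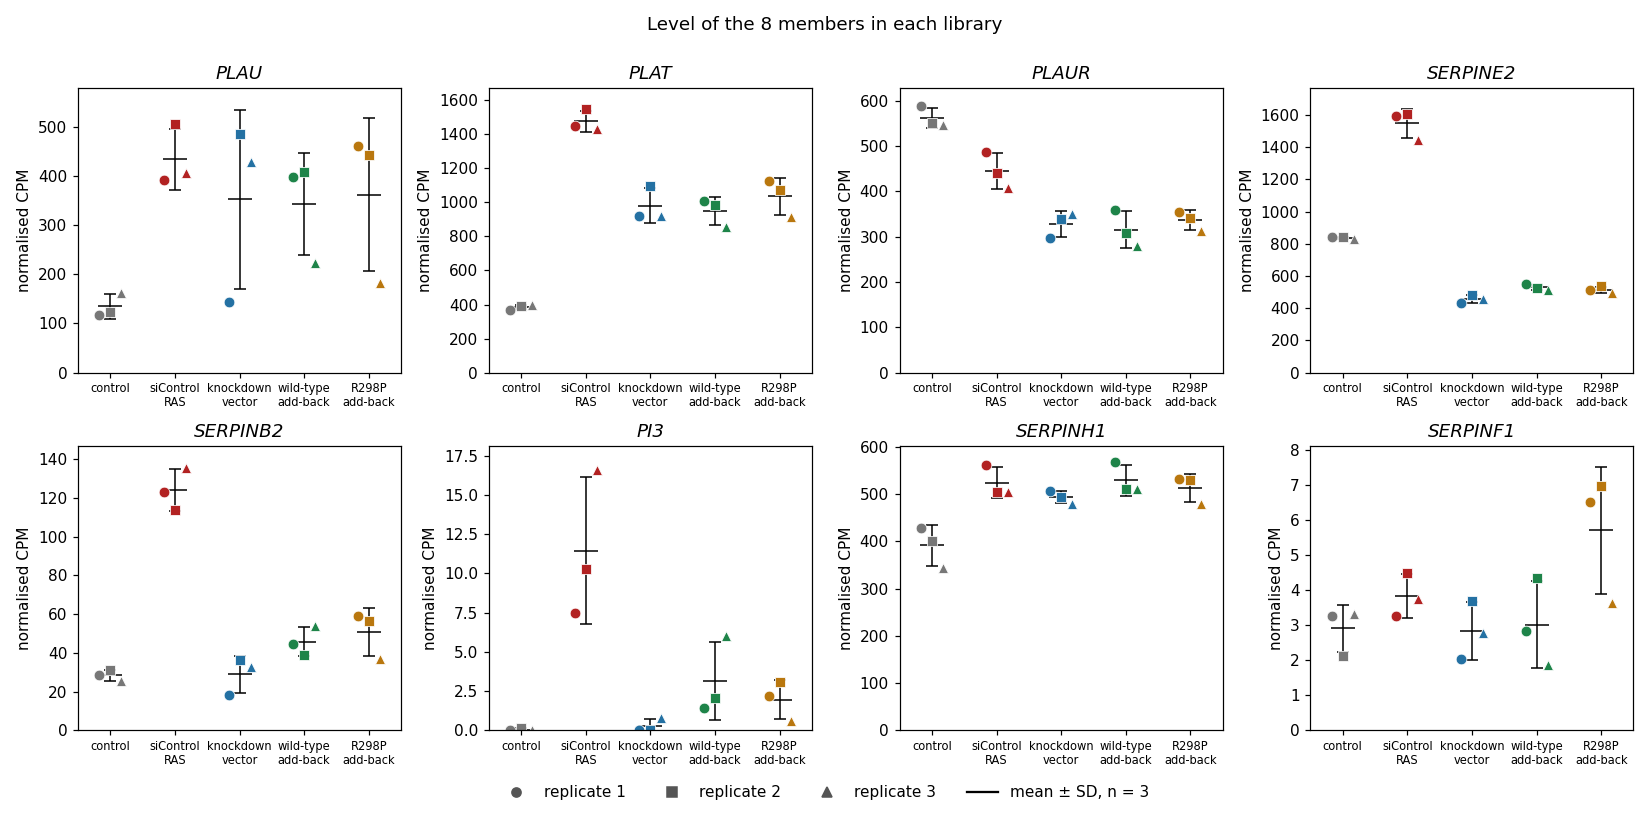
Normalised CPM (vertical axis, linear and from 0) of each member in each of the 15 libraries, grouped by condition along the horizontal axis; symbols are replicates, the short bar is the mean and the whiskers 1 SD (n = 3). SERPINE2, SERPINB2, PI3 and PLAT peak in siControl RAS (1547, 124, 11.5 and 1474 CPM on average), whereas PLAU spreads widely within the 3 METTL14 siRNA groups.

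PLAT, the activator that also works in clearing fibrin from blood vessels, measured 369.9, 389.9 and 398 CPM in control replicates 1 to 3 and 1448, 1547 and 1428 in siControl RAS. Knockdown libraries held 919, 1099 and 919.5 CPM, wild-type add-back 1008, 986 and 857, and R298P add-back 1122, 1069.7 and 913. The siControl RAS libraries are the highest, the control libraries the lowest, and the 3 METTL14 siRNA groups overlap one another between them. PLAT rose 3.82-fold with RAS (log2 1.93, SE 0.0796, adjusted p = 8.02e-18). With knockdown it fell by 0.59 on the log2 scale (SE 0.0767, adjusted p = 1.46e-06), to 66.4% of the siControl RAS mean. It stayed above control: knockdown exceeded control by 1.34 (adjusted p = 4.59e-14).

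PLAU, the activator that binds PLAUR, measured 117, 124 and 163 CPM in control and 391, 505 and 406 in siControl RAS. Its knockdown libraries held 145, 485 and 428 CPM, the wild-type add-back 398, 407 and 224, and the R298P add-back 461, 442 and 183. In each METTL14 siRNA group 2 libraries lie within the siControl RAS range and 1 lies far lower, at 31.7%, 55.6% and 40.5% of the mean of the other two. The low library is replicate 1 in knockdown and replicate 3 in both add-backs. The coefficient of variation was 51.7%, 30.1% and 42.9% in these groups and 14.3% in siControl RAS. The same libraries were lowest in their groups for SERPINF1, PLAUR, PLAT and SERPINE2. For SERPINF1 they held 10, 10 and 18 counts, at 62.6%, 52.4% and 54.05% of the mean of the others. PLAUR, PLAT and SERPINE2 departed less, down to 83.3% for PLAT in R298P replicate 3. SERPINB2 was lowest in replicate 1 of knockdown and replicate 3 of the R298P add-back, at 52.5% and 63.3% of the mean of the others. It was highest in replicate 3 of the wild-type add-back. PI3 was also highest there, and SERPINH1 was highest in replicate 1 of knockdown. The cause was not tested.

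PLAU rose 3.22-fold with RAS (log2 1.69, SE 0.471, adjusted p = 0.0128). Knockdown against siControl RAS gave -0.29 on the log2 scale, with a 95% interval from -1.29 to 0.71 (adjusted p = 0.759). That interval contains the fall seen for PLAT, so a change of that size was not detectable for PLAU. Against control, PLAU was called higher in knockdown (log2 1.40, adjusted p = 0.0397), wild-type add-back (1.35, 0.0444) and R298P add-back (1.43, 0.0344). These 3 calls depended on single libraries. Leaving out control replicate 1, 2 or 3 gave adjusted p = 0.114, 0.107 and 0.0638 for knockdown, 0.123, 0.116 and 0.0697 for the wild-type add-back, and 0.101, 0.0964 and 0.0572 for the R298P add-back. The calls also missed the threshold without knockdown replicate 2 or 3 (0.137 and 0.110), wild-type replicate 1 or 2 (0.113 and 0.120) or R298P replicate 1 or 2 (0.108 and 0.101). Over all alternatives adjusted p ran from 0.00595 to 0.137 for knockdown, 0.0121 to 0.123 for the wild-type and 0.00736 to 0.108 for the R298P add-back. With the replicate number as a block the adjusted p was 0.0599, 0.0652 and 0.0531.

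PLAUR went the other way from its ligand. The receptor measured 588, 552 and 547 CPM in control and 487, 441 and 407 with siControl RAS. Knockdown libraries held 296, 339 and 350.4 CPM. The add-backs held 359, 307 and 279 CPM (wild-type) and 355, 342 and 313 (R298P). Control libraries are the highest, siControl RAS libraries lie below all of them, and the libraries of the 3 siRNA groups lie lower still. PLAUR was lower with RAS by a log2 difference of -0.34 (SE 0.0824, adjusted p = 0.00105). It was lower again in knockdown than in siControl RAS, by -0.44 (SE 0.0832, adjusted p = 2.28e-04), at 58.5% of the control mean.

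SERPINE2, known as protease nexin-1, inhibits thrombin, urokinase and tissue plasminogen activator. It measured 839.8, 841 and 828 CPM in control and 1595, 1605 and 1442 in siControl RAS. Knockdown libraries held 431, 480.1 and 459 CPM, wild-type add-back 548, 524 and 516, and R298P add-back 511, 536 and 497. No siControl RAS library comes near any other group, and all 9 METTL14 siRNA libraries lie below the lowest control library. SERPINE2 rose 1.85-fold with RAS (log2 0.89, SE 0.0605, adjusted p = 1.57e-14). With knockdown it fell by 1.76 on the log2 scale (SE 0.0621, adjusted p = 2.74e-21), to 29.5% of the siControl RAS mean. By p-value it ranked 3 of 13516 genes in that comparison.

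Unlike PLAT, SERPINE2 ended below control. Knockdown differed from control by -0.87 (adjusted p = 5.57e-14), the wild-type add-back by -0.66 (5.17e-11) and the R298P add-back by -0.70 (1.24e-11), all from edgeR.

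SERPINB2, also called plasminogen activator inhibitor 2, inhibits urokinase and is largely retained inside cells. It measured 28.8, 31.1 and 25.6 CPM in control and 123, 114 and 135 in siControl RAS. Knockdown libraries held 18.1, 36.3 and 32.7 CPM, wild-type add-back 44.9, 38.9 and 53.7, and R298P add-back 59.3, 56.6 and 36.7. The siControl RAS libraries stand alone at the top, knockdown straddles control, and both add-backs lie above knockdown without reaching the lowest siControl RAS library. SERPINB2 rose 4.35-fold with RAS (log2 2.12, SE 0.206, adjusted p = 5.86e-08) and fell by 2.08 with knockdown (SE 0.206, adjusted p = 4.40e-07). Knockdown against control gave 0.04, with a 95% interval from -0.41 to 0.49 (adjusted p = 0.913).

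PI3 was close to undetected outside the siControl RAS and add-back groups. Its counts were 0, 1 and 0 in control libraries, then 55, 55 and 93 with siControl RAS. Knockdown libraries gave 0, 0 and 5 counts, the wild-type add-back 7, 14 and 32 and the R298P add-back 14, 18 and 3. In CPM the siControl RAS libraries held 7.49, 10.3 and 16.6, above every other library, and the add-backs 0.608 to 6.01. The ratio of siControl RAS to control was 205, with a 95% counting interval from 36.4 to 8141 that covers counting error only (edgeR adjusted p = 5.63e-07). siControl RAS exceeded knockdown by a ratio of 38.8, with an interval from 16.4 to 121 (edgeR adjusted p = 2.42e-05). All 5 knockdown counts came from replicate 3.

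PI3 is best known as a product of epithelia and keratinocytes, so that marker list was read beside it. Of its 23 genes 12 were at 0 in all 15 libraries, including the defining CDH1, KRT5, KRT14, TP63 and GRHL2. The list summed to 144 to 182 CPM in control libraries, 112 to 135 with siControl RAS and 113 to 116 after knockdown. Of 7 genes tested, 2 were called higher (ELF3 and CLDN7) and 2 lower (KRT19 and CLDN4) with RAS, with a median of -0.21. With knockdown 1 was called higher (KRT19) and 2 lower (ELF3 and CLDN7). ELF3, an epithelial transcription factor on that list, moved with PI3: its counts over each group were 2 (control), 94 (siControl RAS), 4 (knockdown), 34 (wild-type add-back) and 27 (R298P add-back). Like PI3, ELF3 passed the low-count filter only through RAS groups where it was high, so its calls are not counted as support. CLDN7, a tight junction gene, averaged 2.63 ± 0.833 CPM across control libraries, 7.62 ± 0.390 with siControl RAS and 3.05 ± 0.587 after knockdown (SD, n = 3). Its knockdown call (log2 -1.31, adjusted p = 0.0320) was lost without any 1 of the 6 libraries compared (adjusted p up to 0.115) and with no low-count filter (0.0732). The keratin gene KRT19 went the other way, from 51.1 ± 7.56 CPM in control to 10.2 ± 3.69 with siControl RAS and 24.2 ± 7.90 after knockdown, and the claudin CLDN4 was -2.03 with RAS. The part of these genes in the PI3 values was not tested.

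SERPINH1, the chaperone that accompanies procollagen from the endoplasmic reticulum, measured 429, 401 and 344 CPM in control and 562, 506 and 505 in siControl RAS. Knockdown libraries held 506, 494 and 480.0 CPM, wild-type add-back 568, 510.2 and 511, and R298P add-back 532, 529 and 479. Every RAS library lies above every control library, and the 4 RAS groups overlap. SERPINH1 rose 1.34-fold with RAS (log2 0.42, SE 0.0737, adjusted p = 1.29e-05). Knockdown against siControl RAS gave -0.09, with a 95% interval from -0.24 to 0.06 (adjusted p = 0.495).

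SERPINF1 was low throughout, with 3.28, 2.14 and 3.33 CPM in control. siControl RAS libraries held 3.27, 4.50 and 3.74 CPM, knockdown 2.03, 3.70 and 2.79, wild-type add-back 2.83, 4.34 and 1.88, and R298P add-back 6.52, 6.98 and 3.65. All groups overlap siControl RAS, and 2 R298P libraries are the highest of the 15. SERPINF1 passed no test: RAS against control gave 0.39 (95% interval -0.62 to 1.39, adjusted p = 0.554) and knockdown against siControl RAS -0.41 (-1.42 to 0.59, adjusted p = 0.669).

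**Figure D2:**
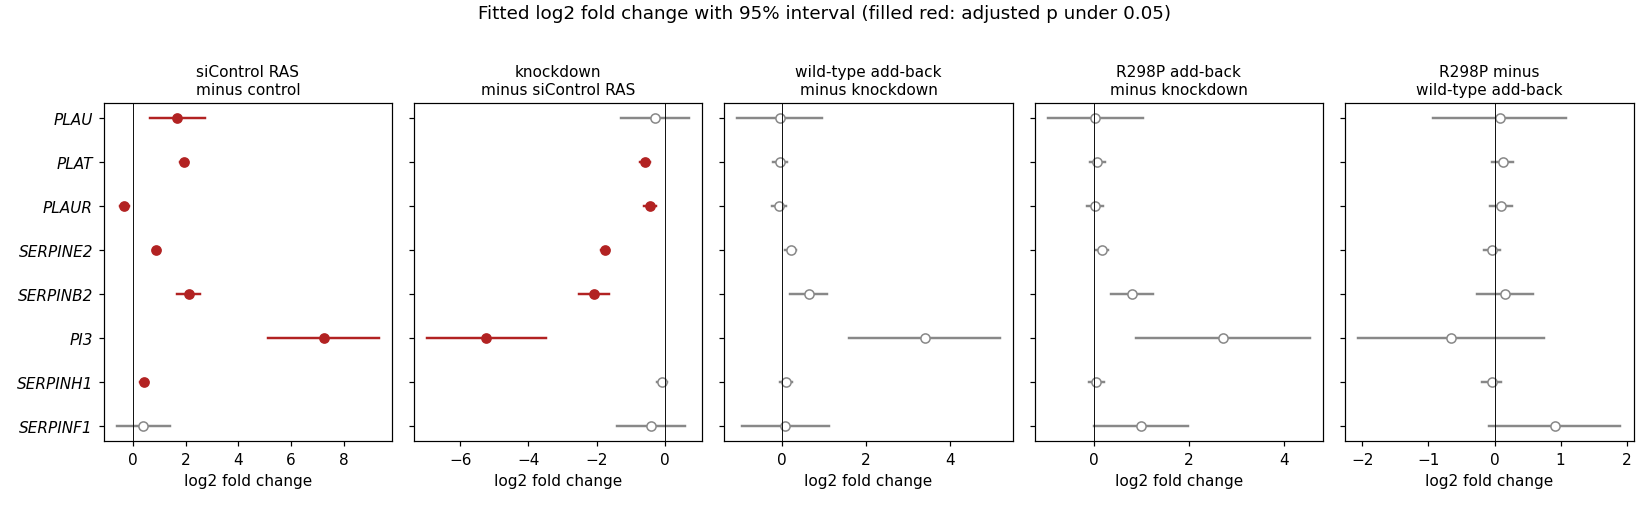
Fitted log2 fold change (horizontal axis, a different range in each panel) with its 95% interval for each member (rows) in 5 comparisons; filled red points have an adjusted p under 0.05 and open grey points do not. In the panel of knockdown minus siControl RAS the red points lie left of 0, from -0.44 for PLAUR to -5.23 for PI3, and in the 3 add-back panels all points are open.

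No member passed the test when METTL14 was added back. In edgeR 0 of 8 members were called in wild-type add-back against knockdown, where 0.621% of all genes tested were called. At an unadjusted p under 0.05 the count was 3, all higher, beside 1021 of 13516 genes tested. DESeq2 called 1 member, with no value given for PI3 or SERPINF1, and limma-voom 0. SERPINE2 was 0.21 higher (95% interval 0.09 to 0.34, adjusted p = 0.149). SERPINB2 was 0.64 higher (0.20 to 1.09, adjusted p = 0.340). For PI3 the ratio of wild-type add-back to knockdown was 10.9, with a counting interval from 4.40 to 35.1 (edgeR adjusted p = 0.0693).

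For SERPINE2 it was DESeq2 that passed the threshold (adjusted p = 0.0127), and its range over all alternatives was 0.0127 to 0.534. PI3 passed without knockdown replicate 3, which holds all of its knockdown counts (adjusted p = 0.00901, range over alternatives 0.00305 to 0.479). With no low-count filter PI3 and SERPINB2 both passed (adjusted p = 0.00305 for each), and the SERPINB2 range was 0.00305 to 0.682.

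R298P add-back against knockdown also gave 0 of 8 members in edgeR, against 1.09% of all genes tested. Here 4 members had an unadjusted p under 0.05, all higher, beside 1220 of 13516 genes tested, and DESeq2 called 1 and limma-voom 0. SERPINB2 was 0.80 higher (95% interval 0.36 to 1.24, adjusted p = 0.0837) and SERPINE2 0.17 higher (0.05 to 0.30, adjusted p = 0.243). SERPINF1 was 1.00 higher (0.0023 to 2.00, adjusted p = 0.553). The PI3 ratio of R298P add-back to knockdown was 7.16, with a counting interval from 2.79 to 23.4 (edgeR adjusted p = 0.189).

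The SERPINB2 difference passed the threshold without knockdown replicate 2 (adjusted p = 0.0320) and without R298P replicate 3 (0.00540). It also passed with DESeq2 (0.0120) and with no low-count filter (1.16e-05). Its range over all alternatives was 1.16e-05 to 0.329. PI3 passed without knockdown replicate 3 (adjusted p = 0.0262, range 0.0262 to 0.566).

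Between the add-backs themselves 0 of 8 members differed in edgeR, with 0 at an unadjusted p under 0.05 and 0 in DESeq2 and limma-voom, against 0.0222% of all genes. DESeq2 gave no value there for SERPINB2, SERPINF1 and PI3. The intervals of the difference, R298P minus wild-type, bound what could have been missed. For SERPINE2 the interval was -0.16 to 0.08, for PLAT -0.03 to 0.28, for PLAUR -0.07 to 0.27 and for SERPINH1 -0.19 to 0.10. Wider intervals were left for SERPINB2 (-0.27 to 0.59), PLAU (-0.92 to 1.09), SERPINF1 (-0.08 to 1.90) and PI3 (-2.06 to 0.74).

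Set against siControl RAS, the add-backs were also low for the members that were lower in knockdown. Wild-type add-back was called lower for 4 of 8 members (6.67% of all genes tested) and R298P add-back for 5 of 8 (7.14%). Without PI3, which passed the low-count filter only through RAS groups where it was high, both were called lower for 4 of 7. SERPINE2 stood at 34.2% of the siControl RAS mean with wild-type METTL14 and 33.3% with R298P, SERPINB2 at 36.9% and 41.0%, and PLAT at 64.5% and 70.2%. PLAUR stood at 70.9% and 75.8%. The fifth, PI3, was at 17.2% with R298P (log2 -2.51, adjusted p = 0.0108) and 27.7% with wild-type METTL14 (log2 -1.85, adjusted p = 0.0588).

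The PI3 calls changed with single libraries and with the method. The R298P call was lost without siControl RAS replicate 3 (adjusted p = 0.0868) or R298P replicate 3 (0.0647), with a range of 3.24e-04 to 0.0868 over all alternatives. The wild-type difference passed without wild-type replicate 3 (adjusted p = 0.0203), with limma-voom (0.00498), with only the groups compared (0.00744), with no low-count filter (0.0184) and with the replicate block (0.0397), in a range of 0.00498 to 0.273.

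Against control, 3 members were called higher and 2 lower in knockdown, where 19.2% of all genes tested were higher and 16.7% lower. Both add-backs had 5 higher and 2 lower, where the shares of all genes were 19.9% and 17.2% for wild-type and 20.1% and 17.3% for R298P. PI3 passed the low-count filter only through RAS groups where it was high, so its calls here are not counted as support. Without PI3, each add-back had 4 of 7 members higher and 2 lower. PLAU, PLAT and SERPINH1 were the higher ones in all 3 siRNA groups, and PLAUR and SERPINE2 the lower ones. SERPINB2 joined the higher members in the wild-type (log2 0.68, adjusted p = 0.0155) and R298P add-backs (0.84, adjusted p = 0.00339). The wild-type call for SERPINB2 was lost without control replicate 1 (adjusted p = 0.0525), control replicate 3 (0.0695) or wild-type replicate 3 (0.0742), with a range over alternatives of 2.18e-05 to 0.0742. PI3 was the fifth, with 53 and 35 counts in the add-backs against 1 in control (adjusted p = 1.59e-04 and 0.00105).

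Read as an order over the 5 groups, the members fell into several patterns. SERPINE2 ran siControl RAS, control, wild-type add-back, R298P add-back, knockdown (1547 ± 91.1, 836 ± 7.34, 529 ± 16.5, 515 ± 19.7 and 457 ± 24.7 CPM, SD, n = 3), and neighbours within the last 3 did not pass the test. PLAT ran siControl RAS, R298P add-back, knockdown, wild-type add-back, control (1474 ± 63.7, 1035 ± 109, 979 ± 103, 950.3 ± 81.5 and 386 ± 14.3), and neighbours within the middle 3 did not pass. PLAUR ran control, siControl RAS, R298P add-back, knockdown, wild-type add-back (562 ± 22.3, 445 ± 40.0, 337 ± 21.4, 329 ± 28.7 and 315 ± 40.8), with no call among the last 3. siControl RAS thus leads for an activator and an inhibitor and comes second for the receptor.

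SERPINB2 ran siControl RAS, R298P add-back, wild-type add-back, knockdown, control (124 ± 10.7, 50.9 ± 12.3, 45.8 ± 7.46, 29.01 ± 9.63 and 28.5 ± 2.76 CPM), and only the first step between neighbours passed. PI3 ran siControl RAS, wild-type add-back, R298P add-back, knockdown, control (11.5 ± 4.65, 3.17 ± 2.48, 1.97 ± 1.25, 0.274 ± 0.474 and 0.0549 ± 0.0951), and none of its steps between neighbours passed. For PLAU, with siControl RAS first (434 ± 62.0) and then R298P add-back, knockdown, wild-type add-back and control (362 ± 155, 353 ± 182, 343 ± 103 and 135 ± 24.7), only the last step passed, and it rests on single libraries as given above. SERPINH1 ran from 529.6 ± 32.9 in wild-type add-back through siControl RAS, R298P add-back and knockdown (524 ± 33.0, 513 ± 29.6 and 493 ± 13.0) to 392 ± 43.5 in control, and only the last step passed. SERPINF1 ran R298P add-back, siControl RAS, wild-type add-back, control, knockdown (5.72 ± 1.81, 3.84 ± 0.619, 3.02 ± 1.24, 2.92 ± 0.672 and 2.84 ± 0.837) with no step passed.

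The genes whose profile over the 5 groups came nearest to each member were found by the root mean square distance of fitted log2 profiles, each centred on its own mean, among 9405 tested genes with a symbol and a group mean of at least 10 CPM (9406 for SERPINF1). Nearest to SERPINE2 were CLGN at 0.175, a testis-associated chaperone, and TNFRSF1B at 0.180, a tumour necrosis factor receptor. SERPINB2 was nearest to ARRDC2 (0.115) and UST (0.168), and PI3 to the small nucleolar RNA gene SNORD3B-2 (0.494), which has near-identical copies, and the chemokine CCL20 (0.697). PLAT had closer ones, PALM2AKAP2 (0.0375) and DOCK4 (0.0514), as did PLAUR with ARMC10 (0.0342) and CDC26 (0.0374). PLAU lay nearest to the integrin subunit ITGAV (0.0352), SERPINH1 to the endocytic receptor LRP1 (0.0197) and the cytokine MIF (0.0216), and SERPINF1 to VCPKMT (0.143) and TMEM186 (0.154). Each distance is a description over 5 group means. The profiles were not scaled, so distances tend to be larger for members whose level changes more.

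**Figure D3:**
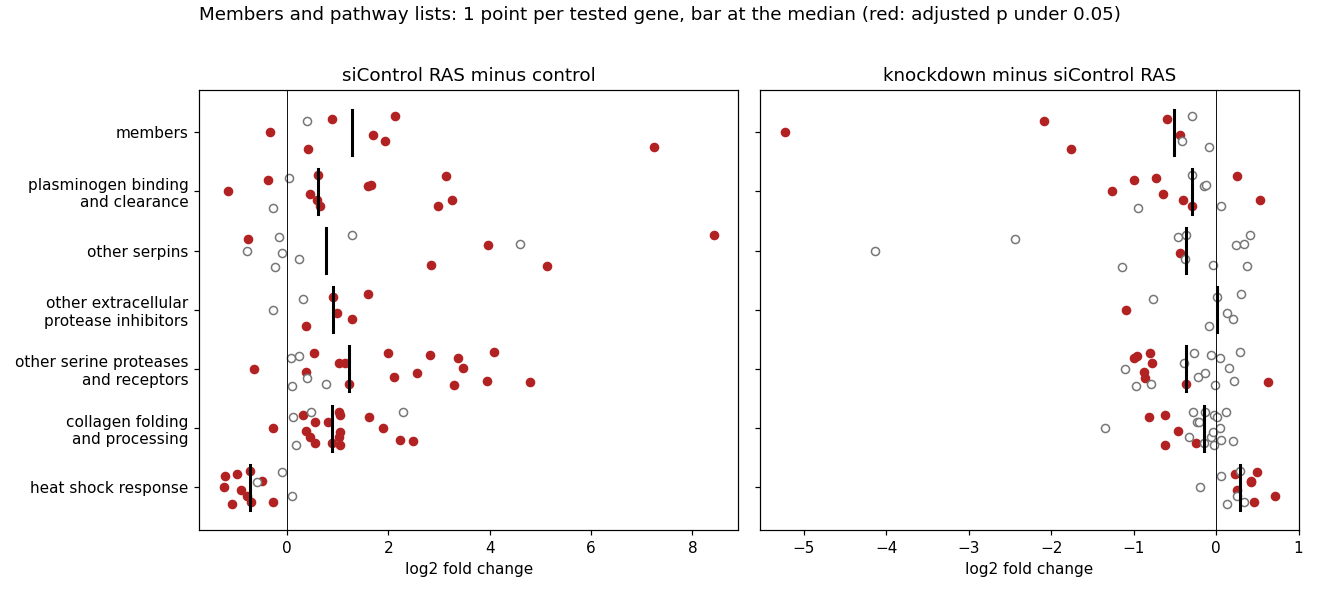
Log2 fold change (horizontal axis) of each tested gene of the members and 6 related lists (rows; vertical scatter within a row has no meaning), in siControl RAS minus control and in knockdown minus siControl RAS; red points have an adjusted p under 0.05, open points do not, and the black bar is the list's median. The members' medians are 1.29 and -0.51, and the heat shock list has the opposite signs, -0.73 and 0.29.

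Of 17 genes listed for plasminogen binding, clearance and substrates at the cell surface, 13 were tested. In this list 9 were called higher and 2 lower with RAS (median log2 fold change 0.61). This and the lists that follow are to be read against the shares of all genes tested, 24% higher and 21.9% lower with RAS and 7.47% and 8.06% with knockdown, and medians of -0.0037 and -0.0028. VLDLR, an endocytic receptor for activator and inhibitor complexes, went from 3.82 ± 1.72 to 36.5 ± 3.27 CPM (log2 3.25). CDCP1, a membrane protein that plasmin cleaves, went from 220.4 ± 14.2 to 1950.4 ± 49.2 CPM (3.15), and the vitronectin receptor subunit ITGB3 from 7.85 ± 1.24 to 62.3 ± 3.53 (2.98). The plasminogen and PLAT receptor pair ANXA2 and S100A10 made up the lower calls, at -1.16 and -0.38.

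With knockdown 6 of the 13 were called lower and 2 higher (median -0.30). VLDLR fell by 1.26, ITGB3 by 0.99 and CDCP1 by 0.73 on the log2 scale, whereas ANXA2 rose by 0.53 and S100A10 by 0.26. R298P add-back raised ITGB5 above knockdown, by 0.42 (adjusted p = 1.72e-04).

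Among 29 other serpins 12 were tested. Those called higher with RAS were SERPING1, the C1 inhibitor (14.7 ± 1.97 to 106 ± 8.82 CPM, log2 2.85), and 3 genes of low level named after their values were seen. SERPINA3 had 13 counts against 0, at least 4.38-fold higher with 3 counts over the control group as the floor, and SERPINB4, a near-identical copy of SERPINB3, had 121 against 0, at least 40.8-fold, with 7.30 ± 7.59 CPM in siControl RAS. The SERPINB4 counts were 0, 36 and 85 in the siControl RAS libraries, and without replicate 3 the bound was 17.5. Its call (adjusted p = 0.0466) was lost without any 1 control library (up to 0.0985), without siControl RAS replicate 2 (0.0698) and in limma-voom (0.368), and that of SERPINA3 in limma-voom (0.0532). SERPINA9 had 69 against 4, a ratio of 17.4 (95% counting interval 6.51 to 65.8). These 3 genes passed the low-count filter only through RAS groups where they were higher than in control, so their calls are not counted as support. The lower call was SERPINB9 (-0.76, adjusted p = 0.0482), lost without control replicate 2 or 3 (0.226 and 0.0691) or siControl RAS replicate 1 or 3 (0.0792 and 0.199). That call was also lost with median-of-ratios scaling (0.0508), no low-count filter (0.0754), DESeq2 (0.0700) and only the groups compared (0.0667). The list's median was 0.76, with SERPINA3, SERPINB4 and SERPINA9 included.
With knockdown SERPING1 was the 1 call, at -0.44 (adjusted p = 0.0123), lost without siControl RAS replicate 3 (0.0687) or knockdown replicate 3 (0.128).

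Of 21 other extracellular protease inhibitors 7 were tested, and 5 were called higher with RAS (median 0.91). WFDC1, of the same WAP family as PI3, rose by 1.59, the membrane-anchored metalloprotease inhibitor RECK by 0.98 and the tissue factor pathway inhibitor TFPI by 0.91. With knockdown TFPI2, which inhibits plasmin, was the 1 call: it went from 665 ± 23.3 to 311 ± 26.3 CPM (log2 -1.10, adjusted p = 5.24e-13). TFPI was -0.33 in R298P add-back against knockdown (adjusted p = 0.0116), a call lost without knockdown replicate 3 (0.0730) or R298P replicate 2 or 3 (0.0743 and 0.0525).

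Of 33 other serine proteases and their receptors 21 were tested, and 15 were called higher and 1, PCSK7, lower with RAS (median 1.21). MASP1 of the lectin pathway rose by 4.79, and C1R and C1S, the proteases that start the classical complement pathway, by 4.09 and 3.94. With knockdown 7 were called lower and 1 higher (median -0.36). C1S fell from 148 ± 16.9 to 80.7 ± 12.4 CPM (log2 -0.88) and C1R from 188 ± 12.7 to 104 ± 6.87 (-0.87), whereas PRSS23 rose from 243 ± 15.9 to 377 ± 22.7 (0.63). PCSK5 and F2RL1 had larger falls, -1.001 and -0.96, but on single libraries. PCSK5 was lost without siControl RAS replicate 2 or 3 (adjusted p = 0.0738 and 0.0577) or knockdown replicate 1 (0.147). F2RL1 was lost without siControl RAS replicate 1 or 2 (0.0533 and 0.0677) or knockdown replicate 3 (0.102).

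SERPINH1 was set beside the other genes of collagen folding and processing, 21 of 22 tested. With RAS 16 were called higher and 1, CRTAP, lower (median 0.89). The lysyl hydroxylase PLOD2 went from 311 ± 15.1 to 1742 ± 110.1 CPM (log2 2.49), the prolyl hydroxylase subunit P4HA2 rose by 2.23 and the procollagen C-proteinase BMP1 by 1.90. With knockdown 5 were called lower (median -0.15): the hydroxylase genes P4HA2 (-0.82), PLOD2 (-0.62), PLOD1 (-0.61), P4HB (-0.46) and P4HA1 (-0.25). PLOD1 was 0.30 higher in R298P add-back than in knockdown (adjusted p = 0.0155). That call was lost without knockdown replicate 2 or 3 (0.103 and 0.132), without R298P replicate 3 (0.139) and with only the groups compared (0.102).

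SERPINH1 is also a classical target of the heat shock factor. All 13 genes of the heat shock list were tested, and 10 were called lower with RAS (median -0.73), the direction opposite to SERPINH1. HSP90AA1 fell by 1.25, HSPA8 by 1.22 and the mitochondrial chaperone HSPD1 by 1.08 on the log2 scale. With knockdown 7 were called higher (median 0.29), led by CHORDC1 (0.71) and HSPA8 (0.49). HSPA1A, which shares near-identical sequence with HSPA1B, gave 0.46 (adjusted p = 0.0132), lost without siControl RAS replicate 3 (0.0672) or knockdown replicate 2 (0.0622). HSPH1 was lower than in knockdown in both add-backs, -0.36 with wild-type METTL14 and -0.34 with R298P. Those calls were lost without wild-type replicate 2 (adjusted p = 0.0625) and R298P replicate 1 (0.0843).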

How the data were processed

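RNA was sequenced from the 3′ end with the QuantSeq kit, per the labels' protocols. The authors deposited 1 table of counts per Ensembl gene, not normalised. The submitters' processing notes name Bowtie2, RSEM 1.2.12 and hg19, with no role stated. Not given in the sources used here are the annotation, the strand setting and any rounding of estimates. Symbols were matched through GENCODE 29 and a symbol table for 52301 identifiers (90.6%), and promoter windows come from RefSeq. Windows of PLAT, PI3 and SERPINF1 are not used here.

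All 15 libraries were fitted in 1 model with 5 group coefficients in edgeR 4.0.16 (R 4.3.3), with TMM factors, the default filter by group and robust quasi-likelihood tests (two-sided, 10 residual degrees of freedom). P-values were adjusted by Benjamini-Hochberg over 13516 genes, which hold 99.8% of the counts, and called under 0.05. All adjusted p-values are edgeR's unless another tool is named. The biological coefficient of variation was 16.7%. With 3 libraries against 3, the smallest exact permutation p is 0.1, so that test was not used. No library copied another: chi-square divided by its degrees of freedom was 3.55 to 8.95 within groups. Over 30 pairs with the same replicate number, deviations correlated at -0.0541 to 0.0681, and the numbers were treated as unpaired.

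The members, lists and tests were chosen with earlier results of these data known. Named were the 8 members, METTL14, up to 3 called genes with the largest change from each list in the first 2 comparisons and up to 2 in the others (group mean of at least 10 CPM), and nearest profiles, of which the closest 1 or 2 are given. A few further list genes (ANXA2, S100A10, C1R, PRSS23, P4HB, P4HA1, PCSK7, CRTAP, CD68, ELF3, CLDN7, KRT19, CLDN4, TEK, ROBO4 and those of low level) were named after their values were seen. Alternatives were 3 other scalings, 2 other filters, DESeq2 1.42.0, limma-voom (limma 3.58.1), only the groups compared, a replicate block, and leaving out each library. The fit was tested on simulated data for knockdown against siControl RAS only, with changes placed in genes above 10 CPM. That simulation covered neither genes as low as SERPINF1 nor differences as small as that of SERPINE2 between add-back and knockdown.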

Additional observations from a re-analysis of the deposited data

How the results depend on the processing

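Of 1190 recomputed member fold changes, 1144 kept their side of the threshold, 32 lost the call, 14 gained one and 0 reversed a call. A further 10 combinations had no value. Among the 1144 are fold changes that changed sign with no call in either fit, such as PLAU in knockdown against siControl RAS (-0.59 to 0.08). All member calls of siControl RAS against control and of knockdown against siControl RAS held under every alternative. Library totals alone moved the median of all genes by -0.15 in siControl RAS against control.

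Members called higher were 2 with no low-count filter, 1 with DESeq2 and 0 to 1 without 1 replicate in wild-type add-back against knockdown, where all genes called higher were 73 with DESeq2 and 25 to 35 without 1 replicate. In R298P add-back against knockdown they were 1, 1 and 0 to 1, and all genes ran from 47 to 71 higher and from 43 to 69 lower without 1 replicate. Against control, members called higher were 3 for R298P add-back with only the groups compared, and 3 to 4 for wild-type add-back without 1 replicate. Between the add-backs, genes called higher were 7 with no filter, 4 with DESeq2, 2 with only the groups compared and 0 to 1 without 1 replicate. Genes called lower there were 7 with no filter, 11 with DESeq2, 4 with limma-voom and 1 to 2 without 1 replicate. The cause of these moves was not tested.

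With the replicate block, genes called higher between the add-backs went to 0, and the member calls that changed are the PLAU and PI3 ones given above. The replicate number is only a number here: 5 of 15 libraries correlated best with their own. Depth limits PI3 and SERPINF1, whose counts a library are low.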
